A study of Mus musculus with 22 samples.

Results

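The germinal center B cells described here carried the heavy chain variable gene IGHV14-3 in 2 single-cell libraries, NP 1 and NP 2, prepared after immunization with the hapten NP. A cell belonged to the set when its productive heavy chain contig with the most unique molecular identifiers (UMIs) was assigned to IGHV14-3 in the deposited receptor annotation. The rule took 348 cells, 201 from NP 1 and 147 from NP 2, of 3488 NP cells with a productive heavy chain and of 5503 such cells in all 3 libraries of the series. They were compared with 2073 NP cells that carried IGHV1-72 (1107 and 966 cells in NP 1 and NP 2) and with 1067 NP cells of any other heavy chain V gene (639 and 428 cells).

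The mice were male C57BL/6 animals, labelled as 8 weeks old. They received an intraperitoneal injection of 100 μg of antigen with LPS in alum. The antigen was NP coupled to the carrier KLH for the NP libraries and ovalbumin (OVA) for the other library and for 16 bulk libraries of heavy chain sequences. For the NP libraries, viable B220+ splenocytes high in Fas and GL-7 that bound NP were sorted at day 13, so every NP cell described here had passed a gate for NP binding. The OVA single-cell library, OVA 1, held total germinal center B cells. The labels do not say whether NP 1 and NP 2 came from different animals. With the library as a block, the edgeR p-values below rest on how far differences between sets varied between these 2 libraries, pooled over genes. The fits had 2 residual degrees of freedom between V genes and 1 within members. The spread was estimated with information shared over genes. In the fit between V genes, a gene's own disagreement between the 2 libraries carried little weight. A gene could therefore pass although its difference was much larger in 1 library. The spread between libraries may be technical, so these p-values cannot be read as a measure of variation between animals.

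A germinal center is a site in a lymphoid organ where B cells divide and mutate their antibody genes in a dark zone and are selected by antigen and T cell help in a light zone. In C57BL/6 mice the response to NP is known for antibodies that pair the heavy chain gene IGHV1-72, also called V186.2, with a lambda 1 light chain. Other V genes can also form NP-binding antibodies, in particular when the third complementarity-determining region of the heavy chain (CDR3) starts with a run of tyrosines. CDR3 is the loop built where the V, D and J segments are joined, and in the deposited annotation it runs from the conserved cysteine at its first residue to the conserved tryptophan at its last.

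The heavy chain CDR3 sequences of the 8 largest clones are shown first because they carry the feature that most members shared. A clone was defined within a library by an identical CDR3 nucleotide sequence. Bases are counted from 1 at the first base of the cysteine codon, and the capitals mark codon 4, bases 10 to 12, which encodes tyrosine (TAT or TAC) in all 8.
NP 1, clone of 13 cells, IGHJ1: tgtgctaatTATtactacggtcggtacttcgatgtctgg
NP 1, clone of 12 cells, IGHJ1: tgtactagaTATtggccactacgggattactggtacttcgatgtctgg
NP 1, clone of 6 cells, IGHJ4: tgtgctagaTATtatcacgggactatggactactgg
NP 1, clone of 5 cells, IGHJ1: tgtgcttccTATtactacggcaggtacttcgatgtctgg
NP 2, clone of 9 cells, IGHJ4: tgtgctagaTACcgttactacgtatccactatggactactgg
NP 2, clone of 8 cells, IGHJ3: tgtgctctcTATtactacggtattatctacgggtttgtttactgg
NP 2, clone of 7 cells, IGHJ2: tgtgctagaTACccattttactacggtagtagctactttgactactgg
NP 2, clone of 5 cells, IGHJ1: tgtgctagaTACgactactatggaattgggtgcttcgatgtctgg

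Ighv14-3 lies at chr12:114059845-114060273 and Ighv1-72 at chr12:115757984-115758277 of GRCm38.p6 (mm10), in the RefSeq annotation of the heavy chain locus. The V gene labels were checked in the gene expression table, which was counted separately from the receptor contigs. At least 1 Ighv14-3 UMI was found in 174 of 176 members of NP 1 that passed the cell filter and in 136 of 137 of NP 2. In IGHV1-72 cells the share was 0.211% and 0.670%, and in cells with other V genes 1.89% and 0.261%. The near relative Ighv14-2, which could take reads of Ighv14-3, had a UMI in 1 member of NP 1 and in 0 of 137 members of NP 2, which allows a share of up to 2.19%. Igkc had a UMI in 42.6% and 58.4% of members, although nearly all had a lambda chain by their contigs. The source of these UMIs was not tested. Chains were therefore read from contigs alone.

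The label of germinal center cell also fitted the markers. Cd79a, a subunit of the B cell receptor, had a UMI in 100% and 99.3% of members in NP 1 and NP 2. Mef2b was detected in 89.8% and 94.2%, Rgs13 in 84.1% and 83.2%, S1pr2 in 73.3% and 67.2%, and Bcl6, the master regulator of germinal centers, in 55.7% and 46.0%. Of the markers of other cell types, all 5 natural killer cell markers were at 0 in both libraries, and the 9 myeloid markers summed to 0 and 3.34 CPM (UMIs scaled to a total of 1000000 per sum). The T cell list summed to 105 and 83.4 CPM, with Cd3e, Trbc1, Cd4 and Cd8a at 0 in both, against 114 and 89.1 CPM in IGHV1-72 cells. The plasma cell list of 14 genes summed to 2408 and 2954 CPM, against 2558 and 2800 in IGHV1-72 cells. The erythroid list of 5 genes summed to 69.4 and 15.9 CPM, with Hba-a1, Hba-a2 and Alas2 at 0 in both, against 92.2 and 23.5 in IGHV1-72 cells.

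Of the 348 members, 196 and 143 had their barcode in the gene expression table and 176 and 137 passed its filter of at least 500 genes and at most 10% mitochondrial UMIs. The median depth of these cells was 6794.5 UMIs in NP 1 and 8260 in NP 2, against 7068 and 9097 in IGHV1-72 cells and 6934.5 and 8017 in cells of other V genes. The heavy chain contigs of the members rested on a median of 6 and 9 UMIs. The libraries NP 1 and NP 2 shared 11 cell barcodes, 1 of them of a member. More than 1 productive heavy chain was found in 3 and 2 members.

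**Figure D1:**
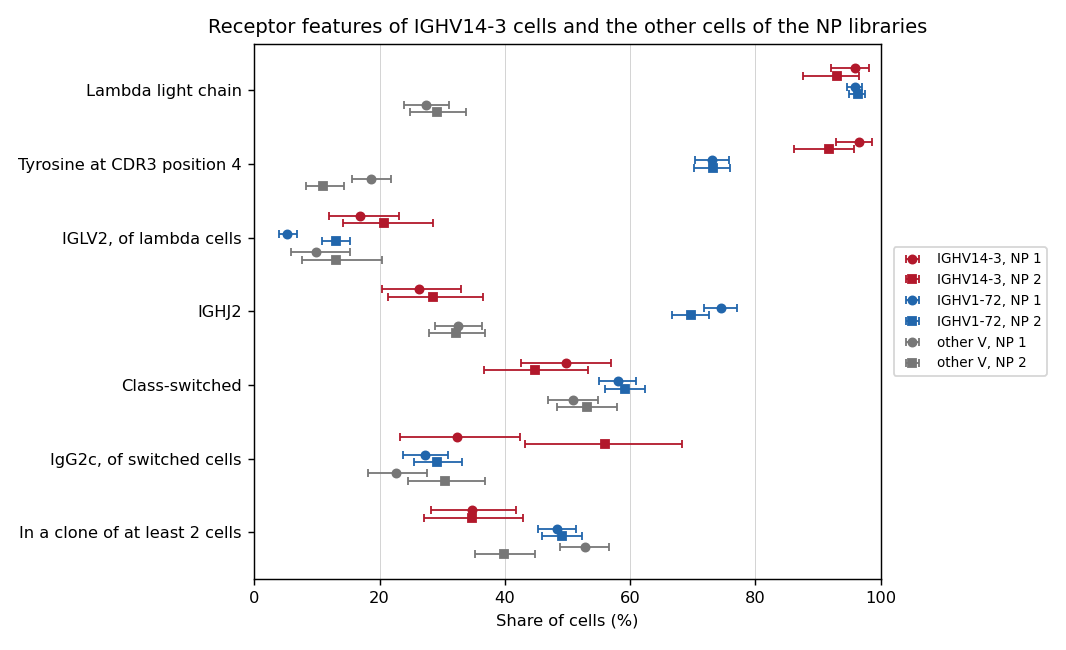
Share of cells in percent (horizontal axis) for 7 receptor measures, for IGHV14-3, IGHV1-72 and other V cells in NP 1 (circles) and NP 2 (squares), with exact 95% binomial intervals as bars. IGHV14-3 cells lie beside IGHV1-72 cells for lambda use and above both other sets for tyrosine at CDR3 position 4.

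Nearly all members used lambda light chains, as did IGHV1-72 cells. A lambda chain was found in 189 of 197 members with a light chain in NP 1, 95.9% (exact 95% interval 92.2 to 98.2), and in 135 of 145 in NP 2, 93.1% (87.7 to 96.6). The share was 96.0% and 96.4% in IGHV1-72 cells and 27.4% and 29.2% in cells of other V genes. With 2 libraries against 2, the exact two-sided permutation test cannot give a p below 0.333, so no difference in a share is called here. The intervals of all shares cover counting error only.

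Within lambda, the share of IGLV2 was higher in members than in the other sets in both libraries. IGLV2 made up 32 of 189 lambda members, 16.9% (11.9 to 23.1), in NP 1 and 28 of 135, 20.7% (14.2 to 28.6), in NP 2. In IGHV1-72 cells it made up 5.27% and 13.0%, and in other V cells 9.88% and 13.1%. The groups of 2 libraries did not overlap, and the exact two-sided permutation p was the smallest possible, 0.333. In NP 2 the interval of the members overlapped that of IGHV1-72 cells (10.9 to 15.3). In both libraries the members' interval also overlapped that of other V cells (5.86 to 15.4 and 7.69 to 20.4).

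Most IGLV2 members had the joint of IGLV2 with IGLJ2. This joint accounted for 11.1% and 15.6% of lambda members against 3.42% and 5.02% of lambda IGHV1-72 cells and 8.72% and 10.7% of lambda cells with other V genes. IGLV2 joined to IGLJ1 went opposite ways in the libraries. In NP 1 it was found in 8 of 189 lambda members, 4.23%, against 1.66% of lambda IGHV1-72 cells. In NP 2 it was found in 1 of 135 lambda members, against 7.86% of lambda IGHV1-72 cells. IGLV3 was found in 0 of 189 and 0 of 135 lambda members, which allows shares of up to 1.59% and 2.22%.

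Members with IGLV2 differed from those with IGLV1 in their heavy chain J segments. IGHJ1 was used by 18 of 32 IGLV2 members in NP 1 and by 13 of 28 in NP 2, but by 28 of 157 and 10 of 107 IGLV1 members. The median heavy chain CDR3 was 16 and 15 residues long with IGLV2 and 14 and 14 with IGLV1. The 32 IGLV2 members of NP 1 fell into 18 clones, and 1 clone of 12 cells held 11 of them. That clone used IGHJ1 with a CDR3 of 16 residues, so it supplied 11 of the 18 IGHJ1 cells. The 28 IGLV2 members of NP 2 fell into 23 clones, and 1 IGHJ1 clone supplied 5 of the 13 IGHJ1 cells there. These contrasts are given as counts, with no test.

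Some light chain CDR3 sequences recurred in many members. The most common IGLV1 and IGLV2 sequences are shown because most lambda members carried 1 of them.
IGLV1, 178 members: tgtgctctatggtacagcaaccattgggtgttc
IGLV2, 34 members: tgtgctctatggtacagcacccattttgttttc
The IGLV1 sequence was found in 60.5% and 77.6% of IGLV1 members, against 53.9% and 53.5% of IGLV1 cells with IGHV1-72 and 48.7% and 39.6% of those with other V genes. In NP 2 the members' interval (68.5 to 85.1) lay above both others, whereas in NP 1 (52.4 to 68.2) it overlapped them.

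Tyrosine at CDR3 position 4 was close to universal in the members. It was encoded in 194 of 201 members of NP 1, 96.5% (93.0 to 98.6), and in 135 of 147 of NP 2, 91.8% (86.2 to 95.7). IGHV1-72 cells had it in 73.2% in both libraries, and other V cells in 18.6% and 11%. The members' intervals did not overlap those of either set, and the order was alike in both libraries. Counting each clone once gave 95.3% and 88.9% of clones, close to the share of cells.

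At positions 5 and 6 the tyrosine share of members was no higher than that of IGHV1-72 cells. At position 5, tyrosine was found in 47.8% and 38.8% of members against 48.4% and 52.7% of IGHV1-72 cells. At position 6 it was found in 59.7% and 66.0% against 70.4% and 70.6%. Both sets exceeded the other V cells at these positions, which had 23.8% and 9.81% at position 5 and 28.5% and 24.3% at position 6. The codon itself differed in use between libraries, with TAT in 161 and TAC in 33 cells of NP 1 and TAT in 72 and TAC in 63 of NP 2.

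The 3 codons before it were read against the end of germline IGHV14-3, taken from the germline alignments that the authors deposited with the bulk sequences. The first 9 CDR3 bases equalled that end, tgtgctaga, in 88 members of NP 1 (43.8%) and 77 of NP 2 (52.4%), and the first 6 bases did so in 68.2% and 86.4%. In the former cells codon 4 directly followed 3 unmutated V codons.

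The residue was present in 317 of 324 lambda members over both libraries. In the few kappa members the libraries differed, with 5 of 8 in NP 1 and 1 of 10 in NP 2. Among lambda cells of other V genes the share was 44.2% in NP 1 and 19.7% in NP 2, below that of lambda members. Among kappa cells of IGHV1-72 it was 41.9% and 55.9%.

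Of the 19 members without the tyrosine, 12 had a kappa chain and 7 a lambda chain and 16 were IgM. By the definition of identical CDR3 nucleotides 0 of them belonged to a clone of at least 2 cells, whereas 70 and 51 of the cells with tyrosine did, but some of their CDR3s were nearly identical, as in the IGKV9-124 pair printed here. Kappa members were diverse, with 18 cells from 12 V genes. Examples are shown with codon 4 in capitals, to be read beside the clones above.
NP 2, kappa IGKV9-124, IgM: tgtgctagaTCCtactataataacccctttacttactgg
NP 2, kappa IGKV9-124, IgM: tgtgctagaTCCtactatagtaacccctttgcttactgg
NP 1, lambda IGLV1, IgM: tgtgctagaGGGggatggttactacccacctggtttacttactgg
NP 2, lambda IGLV1, IgG3: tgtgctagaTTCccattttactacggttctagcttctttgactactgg
The last of these had the length of the 7-cell NP 2 clone and differed from it at 4 of 48 bases, codon 4 included.

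The OVA 1 library is set beside the NP libraries, although it differed in both antigen and sorting gate. Its day is not given by the labels. In OVA 1, 9 cells of 7 clones carried IGHV14-3. A lambda chain was found in 0 of 9, and 2 of 9 had tyrosine at position 4, 22.2% (2.81 to 60.0). A sequence found in 3 OVA cells, all IgG2b with IGKV8-21, is shown for contrast.
OVA 1, 3 cells: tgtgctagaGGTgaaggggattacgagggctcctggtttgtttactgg

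The J segments were used more evenly in members than in IGHV1-72 cells, but this also held for other V cells. IGHJ2, which built 74.5% and 69.7% of IGHV1-72 chains, was used by 26.4% (20.4 to 33.0) and 28.6% (21.4 to 36.6) of members. IGHJ1 was used by 23.9% and 15.6%, IGHJ3 by 19.4% and 35.4% and IGHJ4 by 30.3% and 20.4%. In other V cells the shares were 13.5% and 17.5% for IGHJ1 and 32.6% and 32.2% for IGHJ2. They were 31.0% and 31.8% for IGHJ3 and 23.0% and 18.5% for IGHJ4. The members' CDR3 averaged 14.6 residues in both libraries (SD 1.5 over 201 cells and 1.17 over 147), against 13.7 and 13.9 in IGHV1-72 cells and 14.3 and 14.4 in other V cells.

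Of 130 distinct amino acid sequences in NP 1 and 94 in NP 2, 1 was found in both, 0.769% and 1.06% of the lists. In IGHV1-72 cells 43 of 589 and 525 recurred, 7.30% and 8.19%; these shares depend on the length of the lists and are not compared. Allowing 1 residue of difference, 12 member CDR3s of NP 1 and 7 of NP 2 had a match in the other library, in 35 and 11 cells. The shared member CDR3 was built from different nucleotides in the 2 libraries, with IGLV1 in NP 1 and the kappa gene IGKV12-89 in NP 2, in 1 IgM cell each.
NP 1: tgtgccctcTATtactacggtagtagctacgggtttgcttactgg
NP 2: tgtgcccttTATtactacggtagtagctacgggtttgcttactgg

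The close relative IGHV14-2, at chr12:113994469-113994898, was examined for 2 of these features, lambda use and the tyrosine. It was carried by 73 cells of NP 1 and 12 of NP 2. Its lambda share was 94.4% and 91.7%, and tyrosine at position 4 was encoded in 93.2% (84.7 to 97.7) and 100% (73.5 to 100) of cells. In NP 1 a single clone of 37 cells held many of them, and over its 26 clones the tyrosine share was 84.6%. These cells stand among the other V cells in the comparisons. They were 68 of the 119 other V cells with the tyrosine in NP 1 and 12 of the 47 in NP 2.

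A smaller share of members than of IGHV1-72 cells belonged to expanded clones in both libraries. The 201 and 147 members fell into 149 and 108 clones, of which 18 and 12 had at least 2 cells. Clones of at least 2 cells held 34.8% (28.3 to 41.8) and 34.7% (27.0 to 43.0) of members, 48.3% and 49.2% of IGHV1-72 cells, and 52.7% and 40.0% of other V cells. The order against IGHV1-72 cells was alike in both libraries with intervals that did not overlap, but the exact two-sided permutation p was again 0.333, the smallest possible. The share depended on the definition of a clone, rising in members to a mean of 90.6% when CDR3s of 1 length with at least 85% identity were joined. At that identity the 711 and 610 IGHV1-72 clones joined into 92 and 110 groups, and those of members into 46 and 37. The order of the sets is given for identical CDR3s only. Of these nucleotide sequences, 15 of IGHV1-72 cells and 0 of members were found in both libraries. Whether identical CDR3s came from 1 joining event was not tested.

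**Figure D2:**
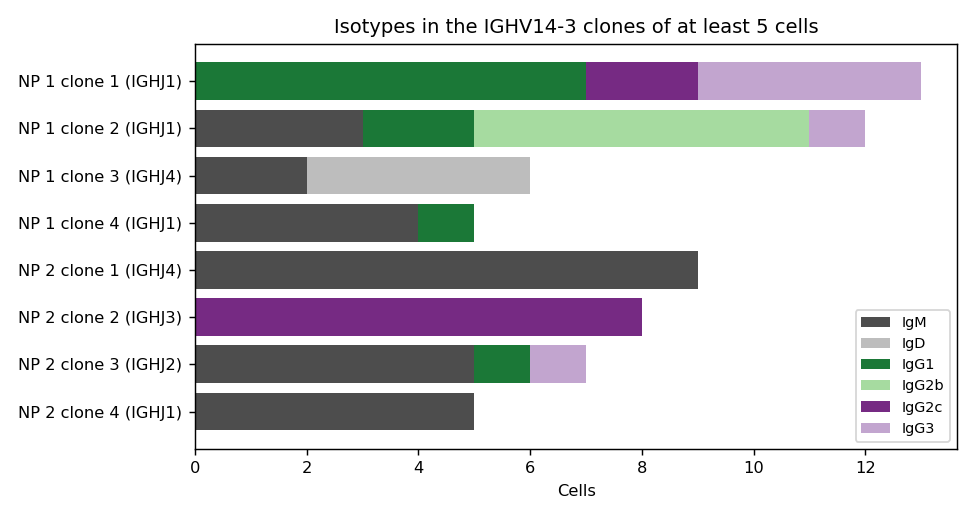
Number of cells (horizontal axis) in each of the 8 IGHV14-3 clones of at least 5 cells, numbered by size within a library and coloured by isotype. The largest clone of NP 1 has no IgM cell, the second has IgM and 3 IgG isotypes, and 2 clones of NP 2 are IgM throughout.

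The 8 clones differed in isotype. In NP 1 the clone of 13 cells was fully switched, with 7 IgG1, 2 IgG2c and 4 IgG3 cells. The clone of 12 had 6 IgG2b, 3 IgM, 2 IgG1 and 1 IgG3 cells, and the clone of 6 had 4 IgD and 2 IgM cells. In NP 2 the clones of 9 and of 5 cells were all IgM and the clone of 8 was all IgG2c. Of the clones with at least 2 cells, 9 of 18 in NP 1 and 7 of 12 in NP 2 had a single isotype, and 5 in each library held switched and unswitched cells together.

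Light chains were mostly shared within a clone. A single light chain V gene was found in 13 of 18 clones of NP 1 and in 12 of 12 of NP 2. The NP 1 clone of 12 cells paired with IGLV2 in 11 cells and with IGLV1 in 1, and the NP 2 clone of 5 with IGLV2 in all 5. The NP 1 clone of 13 paired with IGLV1 in 12 cells and with a kappa chain in 1.

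Around these 8 clones lay 20 CDR3 variants that differed from the clone by a single base in the same library, in 27 cells. Of them, 16 changed a residue, 4 were silent and 0 changed codon 4. Around the NP 1 clone of 12, A35T, which gives the residue change Y12F, was found in 4 cells. Around the NP 2 clone of 9, T23G, which gives V8G, was found in 4 cells. Around the NP 2 clone of 5, the cysteine at position 11 was replaced in G32A (C11Y) and C33G (C11W), in 1 cell each. The reads cannot tell a mutated descendant from a separate joining event.

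The share of switched cells was lower in members than in IGHV1-72 cells in both libraries, with no test that could call it. Switched isotypes made up 99 of 199 members, 49.7% (42.6 to 56.9), and 66 of 147, 44.9% (36.7 to 53.3), against 58.1% and 59.2% of IGHV1-72 cells and 50.9% and 53.2% of other V cells. In NP 2 the members' interval lay below that of IGHV1-72 cells (56.0 to 62.3), and in NP 1 it overlapped it (55.1 to 61.0). IgM was found in 95 and 81 members, IgD in 5 and 0, and IgA in 0 of 199 and 0 of 147.

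IgG2c was the most frequent switched isotype of the members. It made up 32 of 99 switched members of NP 1, 32.3% (23.3 to 42.5), and 37 of 66 of NP 2, 56.1% (43.3 to 68.3). In IGHV1-72 cells it was 27.2% and 29.2% of switched cells and in other V cells 22.7% and 30.4%. The interval lay above the others in NP 2 only, where the 8-cell clone was entirely IgG2c. Switched cells made up 58.6% and 51.0% of members in clones of at least 2 cells and 45.0% and 41.7% of members seen once, with overlapping intervals in each library. In NP 1, IgG1 was close behind with 27 of 99 switched members.

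Gene expression was compared on UMI sums of the cells of each set in each library, with immunoglobulin genes left out and the library as a block. Each comparison therefore rests on 2 libraries. Values are CPM over the remaining genes, given as members against the other set, and adjusted p-values are Benjamini-Hochberg values from edgeR's quasi-likelihood test.

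Against IGHV1-72 cells, the genes lower in members included Rrm2, Top2a, Stmn1 and the histone gene Hist1h3e, and those higher included Il4i1, Capg and Cd72. Of 9754 genes tested, 45 passed an adjusted p of 0.05, which is 0.461% of them; 20 were higher and 25 lower, and the median log2 difference of all genes was 0.00. With no block for the library, 0 of the 9754 genes passed and 136 had an unadjusted p under 0.05. DESeq2 called 9 genes, 8 of them among the 23 of the 45 that it gave an adjusted p. With 1 cell kept per clone 15 of the 45 remained, and no other gene was called. Of the 45 genes, 39 differed by less than a factor of 2.

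**Figure D3:**
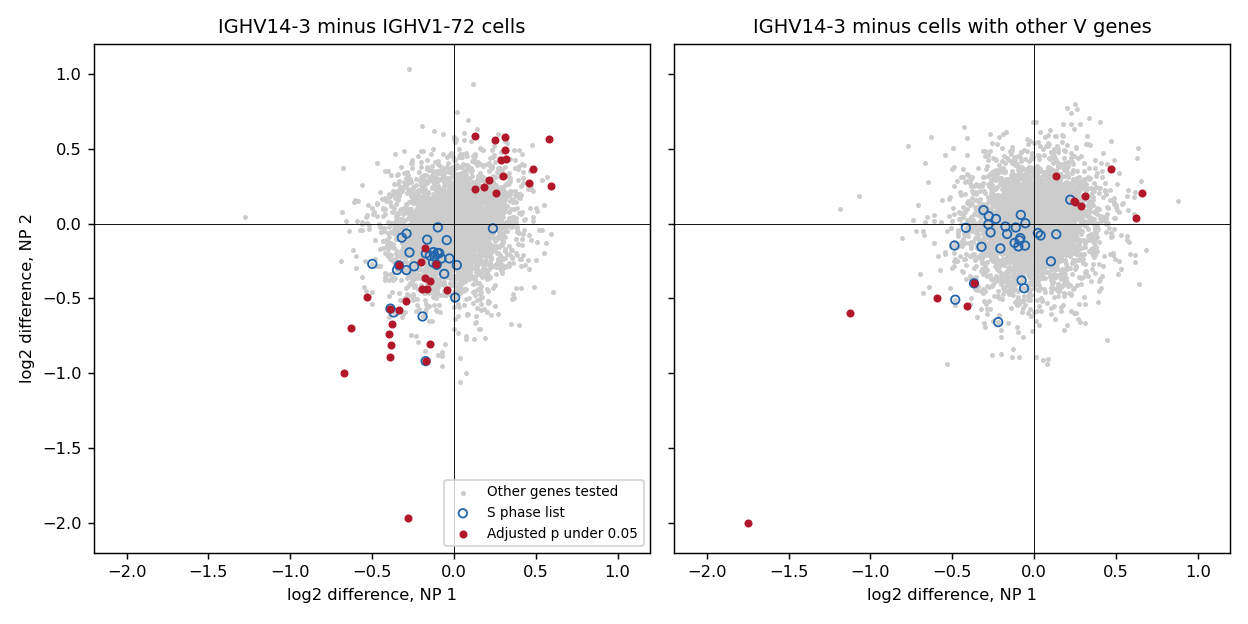
log2 difference in NP 1 (horizontal axis) against NP 2 (vertical axis) for IGHV14-3 minus IGHV1-72 cells (left) and minus cells of other V genes (right), for the 4136 genes with a log2 CPM of at least 5. Red points passed an adjusted p of 0.05, 37 of the 45 called genes on the left and 13 of the 19 on the right, and blue rings mark 29 S phase genes, which lie mostly below 0 on both axes of the left panel.

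The replication genes were led by Rrm2, the small subunit of ribonucleotide reductase, which makes deoxynucleotides. Its level was 177 against 232 CPM in NP 1 and 155 against 231 in NP 2, lower by 0.47 on the log2 scale (log2 difference -0.47, SE 0.084, edgeR adjusted p = 3.4e-05). Mcm6, a subunit of the replicative helicase, was at 286 against 360 and 325 against 394 CPM (-0.31, edgeR adjusted p = 0.00374). Clspn, an adaptor of the replication checkpoint, was at 58.3 against 65.7 and 45.0 against 85.5 CPM (-0.52, edgeR adjusted p = 0.0336). In each of these genes both libraries were lower in members.

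Of the 29 genes of the S phase list these 3 fell and 0 rose, against 0.256% of all genes called lower. The median log2 difference of the list was -0.19, with -0.15 in NP 1 and -0.23 in NP 2, and 26 of the 29 were lower in both libraries, against 27.3% of all genes tested. Genes of the list that did not pass included Gins2 at -0.49, Tyms at -0.34 and Pcna at -0.18. Pola1, a subunit of DNA polymerase alpha, was at 0.12. The list was chosen with earlier results of these data known.

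**Figure D4:**
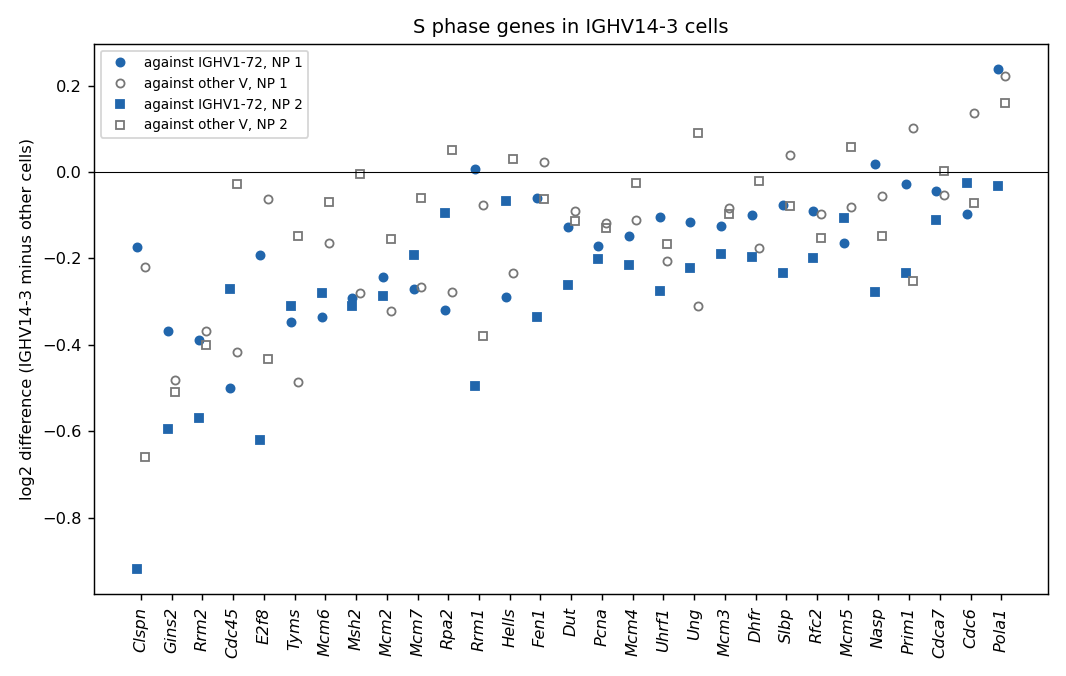
log2 difference (vertical axis) of each of the 29 S phase genes between IGHV14-3 cells and IGHV1-72 cells (blue) or other V cells (open grey), with circles for NP 1 and squares for NP 2. Against IGHV1-72 cells both libraries lie below 0 in 26 of the 29 genes, and Rrm2, Mcm6 and Clspn passed the test.

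Replication-dependent histone genes, whose products package new DNA, were among the largest falls. Hist1h2af was at 10.2 against 23.4 CPM in NP 1 and at 2.65 against 14.7 in NP 2 (log2 difference -1.52, edgeR adjusted p = 0.000928), on 14 and 3 UMIs in members. Hist1h3e was at 27.7 against 33.8 and 15.9 against 63.6 CPM (-1.09, edgeR adjusted p = 2.2e-05), so most of its difference came from NP 2. Hist1h4d (-0.83), Hist1h2ae (-0.65), Hist1h1d (-0.64), Hist1h1b (-0.59) and Hist1h2ap (-0.29) also fell. These genes have near-identical copies, among which the authors' counting may have split reads.

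Among genes of later division, Top2a, the topoisomerase that separates sister chromosomes, was at 265 against 325 and 208 against 298 CPM (log2 difference -0.40, edgeR adjusted p = 0.000124). Mki67, a chromosome coat protein of dividing cells, was at 339 against 383 and 274 against 353 CPM (-0.26, edgeR adjusted p = 0.0385), and Hmgb2 fell by 0.17 on the log2 scale. Of the 33 genes of the G2 and M phase list these 3 fell and 0 rose; the list's median was -0.08, with 0.02 in NP 1 and -0.18 in NP 2. After each cell was thinned to 2500 UMIs, Mki67 was detected in 36.6% and 33.3% of members, 42.4% and 37.2% of IGHV1-72 cells and 40.5% and 39.0% of other V cells.

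Others that fell were Stmn1 (-0.31), a regulator of microtubules, Pclaf (-0.26), a partner of PCNA, the acetyltransferase Esco2 (-0.52), Atad5 (-0.67), Ddx56 (-0.84), Nmral1 (-0.53), Ranbp1 (-0.30), Acadl (-0.46), Tuba1b (-0.20), H2afz (-0.19) and the unnamed transcript Gm42047 (-1.28). Hmces, which protects abasic sites in single-stranded DNA, fell by 0.23 and was the 1 called gene of 19 in the list of hypermutation and switching.

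Among the genes that rose, Il4i1 had the smallest p. It encodes a secreted amino acid oxidase that is induced in B cells by activation. Its level was 225 against 150 CPM in NP 1 and 175 against 118 in NP 2 (log2 difference 0.59, SE 0.086, edgeR adjusted p = 7.44e-08). At least 1 UMI was found in 48.3% of members against 40.1% of IGHV1-72 cells in NP 1 and in 35.8% against 34.4% in NP 2, so the level differed more than the share of cells with a UMI.

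Capg, an actin-capping protein, was at 25.5 against 16.5 and 45.9 against 14.9 CPM (log2 difference 1.16, SE 0.20, edgeR adjusted p = 2.2e-05). It was detected in 20.4% of members against 10.5% of IGHV1-72 cells in NP 2 but in 13.1% against 10.0% in NP 1. Zfp992 (1.61), Zfat (1.15), Snn (0.79) and Mapk11 (0.77) had the other large differences. They were expressed at a low level, with 15 and 10 UMIs for Zfp992 in the members of NP 1 and NP 2.

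Cd72, an inhibitory coreceptor of the B cell receptor, was at 234 against 155 and 158 against 133 CPM (log2 difference 0.46, edgeR adjusted p = 9.87e-05). Cr2, the complement receptor CD21, was at 194 against 142 and 124 against 103 CPM (0.39, edgeR adjusted p = 0.00977). These were the 2 called of 26 genes in the list of B cell receptor signalling, whose median was 0.07. Slamf1 (0.44), Bank1 (0.36), Cd52 (0.23), Ly6d (0.38) and Ly6a (0.41) rose as well, as did Gm8369 (0.47), Apoe (0.25), Crip1 (0.18) and Malat1 (0.22). Ly6a and Ifi27l2a (0.37) were the 2 called of 13 tested genes of the interferon response list, with a median of 0.18. In lambda cells alone 27 of the 45 genes were called, and Bank1, Ly6d and Cr2 were not among them.

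Of the genes of antigen presentation 1 rose. H2-Oa, which restrains peptide loading, was at 208 against 169 and 270 against 216 CPM (log2 difference 0.31, edgeR adjusted p = 0.0244). The median of the 16 genes tested was 0.11, and 15 of the 16 were higher in both libraries, against 26.3% of all genes. Cd74, the invariant chain, was at 0.13 (edgeR adjusted p = 0.101), H2-Aa at 0.13 and H2-Ab1 at 0.11, none of which passed.

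The light zone and activation list gave 2 called genes of 28, Il4i1 and Slamf1, with a median of 0.15. Cd83, a light zone marker, was at 0.22 (edgeR adjusted p = 0.114) and Cd86 at 0.22, and neither passed. The memory and naive list had a median of 0.29 with 0 of 19 genes called by edgeR. Of its genes, Klf2 went opposite ways in the libraries, at 7.28 against 10.4 CPM in NP 1 and 38.8 against 16.2 in NP 2 (pooled log2 difference 0.73, edgeR adjusted p = 0.214), and Cd38 was at log2 differences of 0.98 in NP 1 and 0.07 in NP 2. MYC targets had 0 called genes of 30 by edgeR, a median of -0.11, and 20 of 30 lower in both libraries, against 27.3% of all genes tested. Xbp1 (0.39) was the 1 called gene of 11 in the plasma cell list. In the 24 genes chosen to span germinal center states, 23 were tested and 2, Mki67 and Ly6d, passed; the log2 differences of the panel ran from -0.26 to 0.79.

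Isotype moved with the comparison, as the shares of switched cells above show, and its part in the result was tested only within isotypes. In switched cells alone 8 genes were called, 6 of them among the 45, and in IgM and IgD cells alone 9, with 6 among the 45. The S phase median was -0.34 in switched cells and -0.10 in IgM and IgD cells. Ifi27l2a, higher by 0.37 over all members, was at -0.02 in switched cells, and Hmces was at 0.03 in IgM and IgD cells.

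Against cells of other V genes, the genes with the smallest p included 2 beside the kappa locus. Of 9754 genes tested 19 passed, 0.195% of them, with 13 higher and 6 lower. With no block for the library 1 gene passed. DESeq2 called 2, both among the 19. The gene with the smallest p was Gm30211, a long noncoding RNA at chr6:70729213-70751690, 2459 bases from the kappa constant gene Igkc (GRCm38.p6). It was at 85.9 against 289 CPM in NP 1 and at 75.9 against 306 in NP 2 (log2 difference -1.87, SE 0.10, edgeR adjusted p = 4.83e-71).

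Rpia, ribose 5-phosphate isomerase, lies 38966 bases from Igkc, at chr6:70765720-70792175. It was at 41.5 against 91.2 and 61.8 against 93.8 CPM (log2 difference -0.87, edgeR adjusted p = 1.35e-06). Members were nearly all lambda cells and other V cells mostly kappa cells. Among lambda cells alone neither gene was lower with an adjusted p under 0.05: Gm30211 was at 0.22 (edgeR adjusted p = 0.913) and Rpia at -0.37 (edgeR adjusted p = 0.747). That fit on lambda cells called 25 genes, 8 higher and 17 lower in members. Only 5 of them were among the 19, of which 15 had an adjusted p there. The part of the light chain in the other calls was not tested further.

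Some genes called against IGHV1-72 cells were also called against all other V cells, in the same direction. Il4i1 was at 225 against 142 and 175 against 152 CPM (log2 difference 0.46, edgeR adjusted p = 0.000734), and Cd72 at 0.38, although its NP 2 level was 158 against 154. Rrm2 was at 177 against 228 and 155 against 205 CPM (-0.38, edgeR adjusted p = 0.0135). Cd52 (0.20), Crip1 (0.23), Malat1 (0.20) and Nmral1 (-0.48) were also called. Both comparisons used the same member cells, so they are not independent.

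Apoe, which encodes a lipid carrier, was at 488 against 352 and 723 against 562 CPM (log2 difference 0.41, SE 0.061, edgeR adjusted p = 3.31e-08). Cd79b, a signalling subunit of the B cell receptor, was at 0.20, and Ltb, the membrane form of lymphotoxin, at 0.25. Srm, a polyamine enzyme and MYC target, was at 59.0 against 89.4 and 53.0 against 75 CPM (-0.56, edgeR adjusted p = 0.0319). Plac8, at 2.91 against 24.0 and 4.41 against 21.5 CPM, was lower (-2.67, edgeR adjusted p = 3.31e-08) on 4 and 5 UMIs in members. Few cells of either set held Plac8: 4 of 176 and 4 of 137 members, and 19 of 530 and 23 of 383 other V cells, with 105 and 70 UMIs. So its other V level came from a small part of those cells. Its level in IGHV1-72 cells was 1.14 and 4.04 CPM, close to that of the members.

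The remaining calls rested on few molecules. Gm43218 (log2 difference 4.16) had 12 UMIs in the members of NP 1, 11 of them in 1 cell, and 1 UMI in NP 2. Aldh1a3 (4.73) had 9 and 1 UMIs, and Ly6k (2.54) 16 and 3. Gm4673 (2.84) had 9 and 8 UMIs and Reln (1.44) 14 and 22. The S phase list had 1 called gene of 29, Rrm2, and a median of -0.12. Of the list, 19 genes were lower in both libraries, against 26.5% of all genes tested, while in IgM and IgD cells alone the median was 0.03. The germinal center B cell list had 1 called gene of 12, Cd79b, a median of 0.11 and 9 of 12 higher in both libraries, against 26.2% of all genes tested. The antigen presentation list had 0 genes called by edgeR and a median of 0.06, with 0.15 in NP 1 and -0.01 in NP 2. Of its 16 genes tested, 7 were higher and 2 lower in both libraries. The memory and naive list had 1 called gene of 19, Ltb, and a median of -0.01.

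Within the members, switched cells were compared with IgM and IgD cells (87 against 88 cells in NP 1, 65 against 72 in NP 2). Of 6475 genes tested 15 passed, 0.232% of them, with 7 higher and 8 lower in switched cells. The fit had 1 residual degree of freedom. With no block for the library 0 genes passed and 157 had an unadjusted p under 0.05. DESeq2 called 0, and 0 were called when the 5 members with more than 1 heavy chain were left out. The 15 genes are therefore given as values of this fit.

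**Figure D5:**
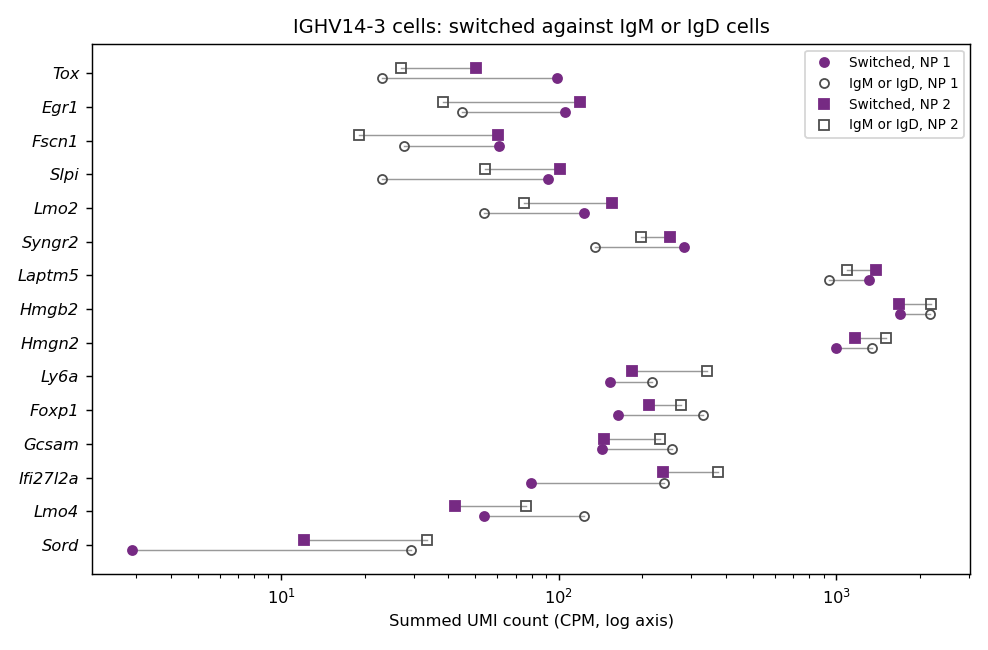
Level in CPM (horizontal axis, log scale) of the 15 genes called between switched (filled) and IgM or IgD (open) members, with circles for NP 1, squares for NP 2 and a line joining the groups of a library. In each gene both libraries differ in the same direction.

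Egr1, an immediate early gene induced by receptor signals, was at 106 against 44.7 CPM in NP 1 and at 119 against 38.3 in NP 2 (log2 difference 1.42, SE 0.26, edgeR adjusted p = 0.00123). In NP 1, 23 of its 73 UMIs came from 1 cell. Tox, a nuclear factor, was at 98.6 against 23.1 and 50.4 against 27.1 CPM (1.57, edgeR adjusted p = 0.00296). Lmo2, a germinal center transcription cofactor, was at 123 against 54.0 and 155 against 75 CPM (1.11, edgeR adjusted p = 0.00545).

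Slpi, a secreted protease inhibitor, was at 91.3 against 23.1 and 101 against 54.2 CPM (log2 difference 1.35, edgeR adjusted p = 0.00571), with 29 of 63 UMIs of NP 1 in 1 cell. Fscn1 (1.35), an actin-bundling protein, Syngr2 (0.70) and Laptm5 (0.42) were also higher. Of the light zone and activation list 1 of 24 genes tested, Egr1, passed. Its median was 0.40, and 17 of the 24 were higher in both libraries, against 26.0% of all genes. Ccnd2, cyclin D2, was at 40.6 against 3.08 and 22.2 against 14.4 CPM and did not pass (edgeR adjusted p = 0.0519).

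Lower in switched members were Ifi27l2a, an interferon-induced gene, at 79.7 against 241 and 238 against 375 CPM (log2 difference -1.04, edgeR adjusted p = 0.000566), and Ly6a (-0.70). Gcsam, a regulator of germinal center B cell signalling, was at 143 against 256 and 145 against 231 CPM (-0.76, edgeR adjusted p = 0.0307). Foxp1 was at -0.71, and Gcsam and Foxp1 were the 2 called of 9 genes of the dark zone list. Sord (-2.15), Lmo4 (-1.06), Hmgn2 (-0.40) and Hmgb2 (-0.37) were lower too. The S phase median was -0.31, with 0 genes called by edgeR and 20 of 29 lower in both libraries, against 26.3% of all genes tested.

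The difference between switched and unswitched cells was then set against the same difference in IGHV1-72 cells, in a test added after the data were seen. Of 9202 genes, 0 were called by edgeR for a difference between the V genes, and 463 had an unadjusted p under 0.05. In IGHV1-72 cells Slpi was at 1.21, Tox at 0.98 and Lmo2 at 0.76 on the log2 scale. Gcsam had the lowest unadjusted p, with a difference of -0.79 between the V genes (edgeR adjusted p = 0.184).

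Members in clones of at least 2 cells were also compared with members seen once (63 against 113 and 47 against 90 cells). Of 6607 genes 0 were called by edgeR (0%), 255 had an unadjusted p under 0.05, and DESeq2 called 0. Slpi had the lowest adjusted p, 0.146 in edgeR, at 105 against 33.7 and 140 against 51.2 CPM. Ly6d was at 101 against 203 and 166 against 276 CPM (log2 difference -0.86, edgeR adjusted p = 0.453). The other genes of smallest p were Derl3 (1.40), Dhcr7 (1.79) and Ubr2 (1.10) above 0 and Txndc5 (-0.66), Hsp90ab1 (-0.23), Ftl1 (-0.30) and Nfkbid (-1.56) below it, each with an edgeR adjusted p of 0.997. Gm30211 had 0 UMIs in the expanded members of NP 1 against 118 in those seen once, and 15 against 71 in NP 2, and kappa members in clones of at least 2 cells numbered 3 in NP 1 and 0 in NP 2. In simulated data of this size, 53.6% of genes changed by a log2 fold of 1 were recovered, so changes of that size may have been missed. Lambda and kappa members were not compared, since only 4 and 9 kappa members passed the cell filter, under the minimum of 20 cells.

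After thinning to 2500 UMIs, which 164 and 126 members reached, Cd83 was detected in 53.7% and 42.9% of members against 45.1% and 45.1% of IGHV1-72 cells, and Cxcr4, the dark zone homing receptor, in 22% and 13.5% against 23.6% and 12.1%. In both genes the libraries differed in opposite directions. Myc was found in 6.10% and 7.14% of members against 6.16% and 6.59%.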

How the data were processed

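Single-cell 5′ gene expression and immunoglobulin libraries of 3 sorted samples, and 16 bulk heavy chain libraries, were used as deposited. The gene expression table holds raw UMI counts per gene and cell, which the authors made with Cell Ranger against mm10, per the submitters' processing notes; versions are not given in the sources used here. Receptor contigs were deposited with read and UMI counts per contig, per the file headers. The bulk table gives V identity in percent of aligned bases per sequence, per the file headers.

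Each cell took its productive heavy and light contig with the most UMIs; no ties occurred among members. Library totals in the expression table were 20533741, 16161435 and 21412501 UMIs for NP 1, NP 2 and OVA 1, over 8873 cells. Cells with at least 500 genes and at most 10% mitochondrial UMIs were summed per library and set. No doublet caller was run; 5 and 2 members had a lambda and a kappa contig. The 225 immunoglobulin genes were left out. Sums were tested with edgeR 4.0.16 (filterByExpr, TMM, glmQLFit, glmQLFTest) in R 4.3.3, with the library as a block, since all sets of a library came from the same sample; 1 fit over 6 sums served both comparisons between V genes, and fits over 4 sums those within members. The rule for named genes took, per comparison, the 10 largest differences in each direction among genes that passed an adjusted p of 0.05 with the same sign in both libraries, the 10 of smallest p where fewer than 10 passed, list members that passed, and a panel of 24 genes; the other genes that passed were added after their values were seen. Shares have exact Clopper-Pearson 95% intervals. Scripts were tested on simulated data, where edgeR recovered 73.7% of genes changed by a log2 fold of 1 between IGHV14-3 and IGHV1-72. DESeq2 1.42.0 and other filters, cell sets and clone definitions were tried. A gene of the panel is not reported here. Thinning drew 2500 UMIs per cell. Gene positions and names come from RefSeq (GRCm38.p6). The members and lists were chosen with earlier results of these data known.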

Additional observations from a re-analysis of the deposited data

Results flagged for a closer look

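Heavy chains of IGHV14-3 also appeared in the bulk libraries of OVA germinal center cells, which no comparison above uses. Of 8520 bulk sequences 57 carried it, 0.669%, above the 3 counts that a count of 0 allows. They were spread over the 4 bulk groups, with 21 and 13 sequences in the groups labelled n and p at day 7 and 19 and 4 in those at day 13, and with 0 to 9 per library. Tyrosine at CDR3 position 4 was encoded in 3 of the 57, 5.26% (exact 95% interval 1.10 to 14.6), against 96.5% and 91.8% of the NP members. The median V identity to germline was 99.66%, and the lowest was 96.22%. Bulk sequences and single cells were counted in different ways, so the shares are set side by side without a test.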

How the results depend on the processing

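Call counts moved most. Against IGHV1-72 cells, 45 genes became 9 with DESeq2, 15 with 1 cell a clone, 4 after thinning, 8 in switched cells, 27 in lambda cells and 9 in IgM and IgD cells (the last chosen after seeing the data). Against other V cells, 19 became 2, 9, 1, 6 and 8 under DESeq2, 1 cell a clone, thinning, switched cells and IgM and IgD cells, and 11 with only the 2 sets fitted. In lambda cells alone 25 were called against other V cells, with only 5 of them among the 19. Between switched and unswitched members, 15 became 0 with DESeq2, 5 with RLE scaling, 26 without a filter, 23 with at least 1000 genes and at most 5% mitochondrial UMIs, 0 with 1 heavy chain and 2 after thinning. For expanded clones, 0 became 6 without a filter, 3 with the stricter cell filter and 2 after thinning. Without the replicate block of the library, the counts were 0, 1, 0 and 0 for the 4 comparisons. The cause was not tested; thinned and restricted sums also held fewer cells or UMIs.

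The S phase median against IGHV1-72 cells (-0.19) was -0.31 after thinning, -0.34 in switched and -0.098 in IgM and IgD cells. Against other V cells (-0.12) it was -0.081 with the stricter filter, -0.24 after thinning, -0.35 in switched and 0.027 in IgM and IgD cells, a reversal, and -0.12 to -0.080 in single libraries. The antigen presentation median (0.11) was 0.11 with DESeq2, 0.12 with RLE, 0.087 without a filter, 0.083 with the stricter filter, 0.099 with 1 heavy chain, 0.083 with 1 cell a clone, 0.12 after thinning, 0.21 in switched cells, 0.080 in IgM and IgD cells and 0.12 to 0.13 in single libraries. The memory and naive median (0.29) was 0.20 with 1 cell a clone, 0.17 in lambda cells, 0.21 in IgM and IgD cells and 0.17 to 0.27 in single libraries. Reversed genes were Ifi27l2a in switched cells (-0.018) and Hmces in IgM and IgD cells (0.030), both against IGHV1-72, and Gm30211 in lambda cells against other V (0.22).

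Members in clones of at least 2 cells, a mean of 34.8%, were 34.5% among cells in the expression filter, 35.0% with 1 heavy chain, 32.4% with at least 3 heavy UMIs, 48.3% by amino acids and 90.6% at 85% identity. Mean shares of cells with a UMI at 1500 UMIs, and with no thinning, were 22.8% and 54.8% for Mki67, 36.0% and 72.9% for Cd83, 10.3% and 32.8% for Cxcr4, 1.72% and 13.7% for Myc and 1.25% and 4.83% for Ccnd2. With no thinning they were 8.56% for Irf4, 7.02% for Klf2 and 6.45% for Il9r, and at 1500 UMIs 0.291% for Ccr6. Expression calls without 1 library were not run, since no residual degree of freedom is left. Of the named genes against IGHV1-72, alternatives with an adjusted p kept 246 calls and lost 270. Lambda use, tyrosine at position 4, IGLV2, switching and IgG2c stayed within 1 SD under every cell filter tried. That SD was taken over only the 2 library values. It was 16.8 percentage points for IgG2c, so wide that the check says little there, and 2.01 to 3.43 for the others.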
